A study of Homo sapiens with 197 samples.

Results

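CTCFL, BRDT, TSPYL6, RFX4, HORMAD1 and SPATA22 are germline genes that act on chromatin, in transcription or in meiosis. They make up 6 of the 42 tissue-restricted genes whose RNA was counted with Nanostring probes in human fibroblasts, and they were listed by name, with no threshold on their values. The RNA came from IMR90, non-transformed human lung fibroblasts that the study also calls primary cells. It was collected 4 days after infection with retroviruses that each carried 1 activated kinase with an added myristoylation signal. Of the 196 lanes used, 3 held the 2 samples of IMR90 controls, which the labels describe as empty-vector infections, and all but 11 held kinase wells. A further 2 lanes held 2 samples of SW39, a transformed derivative of IMR90. The remaining 6 lanes repeated a reference, a mixture of RNA from human cancer cell lines of several tissues, among them a melanoma and a testicular embryonal carcinoma. The study's text elsewhere speaks of IMR90 without infection, and if that holds for these controls, the kinase and the infection cannot be told apart in the comparison with them. The infected cells were populations and not clones, and every kinase except PIK3CG and PTK2 had 1 lane, so a single kinase could not be tested against replicate error.

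Germ cells use proteins that somatic cells do without. Some of them reshape chromatin while DNA is packed into sperm, some set the transcription of ciliated and spermatogenic cells, and others pair homologous chromosomes and repair the DNA breaks of meiosis. Most of these genes are kept silent in somatic tissue, often together with methylation of the promoter, and part of them are expressed again in tumors, where they are called cancer/testis genes.

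Each lane gave a raw count per probe. The total over all probes of a lane ranged from 29629 to 340763 in the kinase lanes (median of 160138), from 132257 to 152599 in the IMR90 controls and from 108768 to 233536 in the reference. It was 123789 and 142790 in the 2 SW39 samples. A normalized count is the raw count scaled to the positive-control probes and then to the housekeeping genes PGK1, TBP and TUBB2A. A raw count was called above background when it exceeded the mean of the lane's own 8 negative controls, the probes NEG_A to NEG_H, by more than 2 SD. This background level had a median of 20.6 counts in the kinase lanes (3.01 to 65.8), and stood at 25.9, 17.1 and 22.7 counts in the 3 control lanes. None of 7 genes commonly used as fibroblast markers is on the panel, so the identity of the cells could not be checked in these data.

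Some lanes stood apart. The HK1 lane had a total count of 37625, of which hardly any came from the housekeeping genes (geometric mean of 1.26 counts, against 2709.67 in the first IMR90 control), and was left out. The PIP5K2A lane had the lowest total, 29629, and was scaled up by 6.20. The second lanes of the control IMR90#2 and of PIK3CG and PTK2 bear sample numbers 1, 3 and 4, which other samples bear too, so they may hold other samples. In reference lane 1 the background level was 72.9 counts, against 28.96 to 40.1 in the other 5 reference lanes, and its probe NEG_H had 80 counts against 5 to 7.

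The genes lie on different chromosomes, except for BRDT (chr1:91949371-92014428) and HORMAD1 (chr1:150698060-150720895), which share chromosome 1. TSPYL6 is at chr2:54253178-54256229, RFX4 at chr12:106583004-106762803, SPATA22 at chr17:3440019-3513858 and CTCFL at chr20:57495965-57525652 (GRCh38.p14, RefSeq). RefSeq promoter windows, from 250 bases before to 50 bases after a transcription start, were at hand for 5 of the 6 genes, 10 windows in all. A window is shown for each of the 3 chromatin genes and for RFX4, the transcription factor, since these are the DNA stretches at which the silent genes would be read, and each holds a feature that can be pointed to. They carry no measurement. In the CTCFL window (chr20:57524648-57524947, minus strand) capitals mark the 19 CpG sites, the bases at which promoters are methylated. In the BRDT window (chr1:91949121-91949420, plus strand) they mark the letters CACGTG, known as an E-box. In the TSPYL6 window (chr2:54256180-54256479, minus strand) they mark the letters TCGCGAGA, and in an RFX4 window (chr12:106600898-106601197, plus strand) the letters GTTGCCAT and, overlapping them, their reverse complement, which is the core of the X-box that RFX proteins bind.
CTCFL: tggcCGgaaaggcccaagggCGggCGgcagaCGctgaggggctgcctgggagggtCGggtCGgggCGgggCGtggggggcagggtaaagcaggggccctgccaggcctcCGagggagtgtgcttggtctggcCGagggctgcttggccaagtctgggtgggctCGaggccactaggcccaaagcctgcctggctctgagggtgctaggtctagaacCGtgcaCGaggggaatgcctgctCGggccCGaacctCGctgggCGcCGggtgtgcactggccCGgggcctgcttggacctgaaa
BRDT: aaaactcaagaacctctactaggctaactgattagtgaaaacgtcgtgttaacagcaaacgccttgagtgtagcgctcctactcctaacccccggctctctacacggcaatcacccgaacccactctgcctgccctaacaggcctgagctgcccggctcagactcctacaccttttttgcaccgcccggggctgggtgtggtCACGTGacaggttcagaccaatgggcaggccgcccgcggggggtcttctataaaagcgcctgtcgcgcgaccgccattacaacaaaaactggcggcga
TSPYL6: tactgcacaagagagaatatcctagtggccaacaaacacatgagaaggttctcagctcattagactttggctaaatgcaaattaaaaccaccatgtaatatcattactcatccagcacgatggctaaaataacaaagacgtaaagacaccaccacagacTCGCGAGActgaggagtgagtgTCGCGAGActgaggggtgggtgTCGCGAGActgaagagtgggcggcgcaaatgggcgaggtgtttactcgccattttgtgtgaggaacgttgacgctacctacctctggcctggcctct
RFX4: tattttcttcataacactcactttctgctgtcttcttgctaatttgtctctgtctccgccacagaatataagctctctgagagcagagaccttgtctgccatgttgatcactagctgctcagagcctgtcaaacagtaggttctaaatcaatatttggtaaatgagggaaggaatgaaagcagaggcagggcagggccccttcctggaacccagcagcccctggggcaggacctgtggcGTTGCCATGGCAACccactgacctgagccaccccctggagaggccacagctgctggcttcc
The motifs were picked after the sequences had been read, both strands were searched, and a match is a description and not a site shown to be bound. The windows were picked too, for CTCFL the one with the most CpG sites and for RFX4 the one with the motif. At the outer start of the gene, the CTCFL window held 2 CpG sites and the RFX4 window 0 matches of GTTGCCAT. The shares that follow are per window and leave this choice out of account. CACGTG was found in 7.23% of 34943 promoter windows of the same length, TCGCGAGA in 1.14% and GTTGCCAT in 1.34%. The TSPYL6 window held 3 copies of TCGCGAGA, and 29 windows held 3 or more. The RFX4 window held 2 matches of GTTGCCAT, and 15 windows held 2 or more. The CpG counts of the windows shown, 19 for CTCFL, 21 for BRDT, 14 for TSPYL6 and 2 for RFX4, exceeded those of 57.2%, 60.6%, 49.8% and 11.01% of all windows, and the SPATA22 window, with 27 CpG sites, exceeded 71.9%. Windows at other starts differed. Those of CTCFL held 15 and 2 CpG sites (more than 51.2% and 11.01% of windows), those of RFX4 16 and 5 (52.6% and 29.7%), and the second of BRDT 23 (64.3%).

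In the kinase lanes the 6 genes were mostly within background. Of the 1110 pairs of a gene and a kinase lane, 10% had a raw count above background, where 16.3% of the pairs over all 42 genes were above background. The latter share includes ALAS1 and ATAD2, above background in 100% of the kinase lanes, and ADAM12, in 99.5%, and the median gene was above background in 7.5 lanes among the 6 and in 8.5 lanes among the other 36. CTCFL and BRDT were above it in 0 kinase lanes, which allows a share of up to 1.62% of lanes, and TSPYL6 in 1 lane. RFX4 was above background in 14 lanes (7.57%), HORMAD1 in 30 (16.2%) and SPATA22 in 66 (35.7%). With the level at the mean + 3 SD these were 3, 7 and 25 lanes, and 0 for the other 3 genes. With the level at the highest negative-control probe of the lane they were 20, 37 and 79, with 3 lanes for CTCFL, 2 for TSPYL6 and 0 for BRDT. The negative-control probes themselves, whose counts define the level, exceeded it in 7 lanes for NEG_E, 11 for NEG_F, 9 for NEG_H and 0 for the other 5. None of the 6 genes was above background in 110 kinase lanes, 1 gene was in 46, 2 genes in 22 and 3 genes in 7. Those 7 lanes, ITPK1, NUAK2, PBK, PIK4CA, PRKAR2A, SRPK2 and STK32A, had background levels of 11.6 to 15.9 counts, all lower than the median lane. All 7 had HORMAD1 and SPATA22 above background. The third gene was RFX4 in 6 of them, and TSPYL6 in NUAK2.

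**Figure D1:**
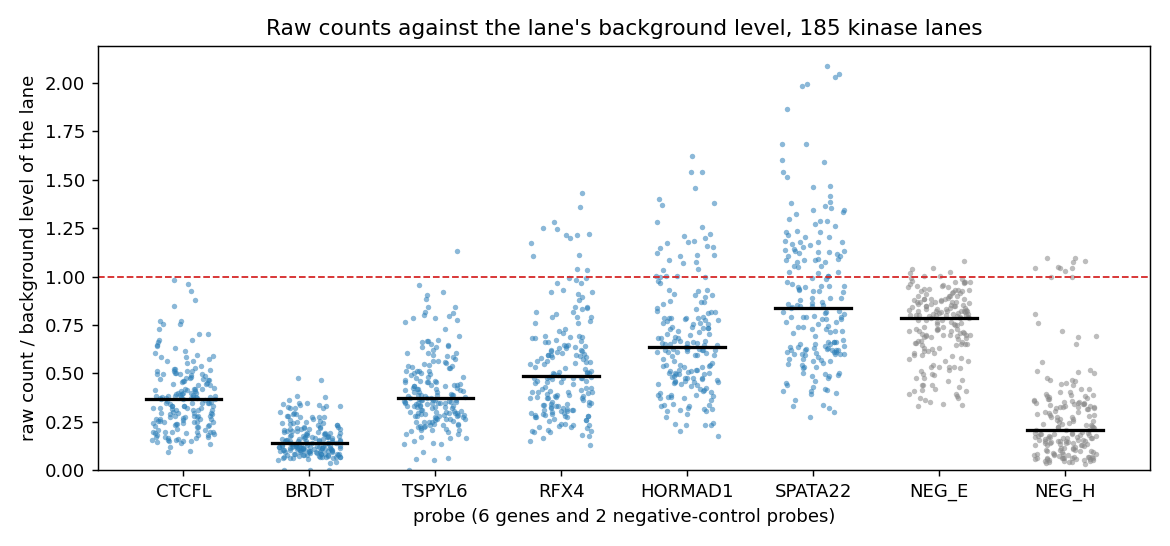
Raw count divided by the background level of the same lane, for the 6 genes and 2 negative-control probes over the kinase lanes without HK1; each point is a lane, the bar is the median and the dashed line marks a count equal to the level. CTCFL and BRDT stay under the line in every lane, and the highest value, 2.09, is of SPATA22.

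Counts above background were close to it. Relative to the level of its lane, SPATA22 had a median of 0.84 and a maximum of 2.09, HORMAD1 a median of 0.64 and a maximum of 1.62, and RFX4 a median of 0.49 and a maximum of 1.43. Of the lanes counted above background, 38 of 66 for SPATA22, 21 of 30 for HORMAD1 and 11 of 14 for RFX4 were within 1.25 times the level. A further 32, 21 and 18 lanes lay between 0.8 and 1 times the level. SPATA22 exceeded 2 times the level in 3 lanes and the other genes in 0.

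CTCFL, also called BORIS, is the germline paralog of the insulator protein CTCF and binds the same kind of DNA sites. It was the one gene of the 6 with a clear signal, and that signal was in the reference RNA. Its normalized counts in reference lanes 1 to 6 were 169.3, 176.9, 145.1, 121.96, 137.6 and 149.7, with a median raw count of 252.5. The raw counts were 4.69 to 10.4 times the background level of their lanes. The 3 control lanes had raw counts of 5, 7 and 8 and the SW39 samples 5 and 7, all within background and far from every reference lane. The mean normalized count was 150.1 ± 20.3 (SD, n = 6 lanes of 1 RNA) in the reference, 6.40 ± 2.02 (SD, n = 2) in the controls and 4.97 ± 0.84 (SD, n = 2) in SW39. The ratio of the reference to the controls on the scale of log2(normalized count + 1) was 20.7, but its denominator was within background. Set against the controls' normalized background level of 23.1 in its place, the mean over the 6 reference lanes was 6.22 times as high, a lower bound for the ratio of the means and not for each lane. No test was made, since the 6 lanes repeat 1 RNA. In the kinase lanes the raw count ranged from 1 to 19 (median of 8), and the lane nearest to background reached 0.98 times its level.

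BRDT is the testis member of the BET family of bromodomain proteins and binds acetylated histones during spermatid chromatin packing. It had the lowest counts of the 6 relative to background, with a median of 0.14 times the level in the kinase lanes. The control lanes had raw counts of 3, 4 and 3, the SW39 samples 2 and 4, and the kinase lanes 0 to 10 (median of 3), with 3 lanes at 0. The reference lanes had 27, 14, 20, 15, 14 and 12 counts. These were higher than in every control lane but above background in 0 of 6 lanes, so no fold is read from them. Another bromodomain gene of the panel, ATAD2, which is active in dividing somatic cells, was above background in all lanes of each group. Its normalized count was 1583 ± 70.3 (SD, n = 6 lanes) in the reference and 193.96 ± 7.46 (SD, n = 2) in the controls.

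TSPYL6 belongs to the TSPY-like family of nucleosome assembly proteins. The control lanes had raw counts of 6, 3 and 8, and the SW39 samples had 6 and 9. The normalized counts in reference lanes 1 to 6 were 39.3, 17.2, 16.3, 10.4, 9.49 and 15.7. In the reference it was above background in 2 of 6 lanes, namely lane 1 and lane 3. In lane 3 the raw count was 1.17 times the background level, and in lane 1, where NEG_H had 80 counts, 1.40 times. Lane 1 had more than any other lane and stood alone. The reference had a mean of 18.1 ± 10.9 (SD, n = 6 lanes), the widest spread of the 6 genes relative to its mean (60.3%). The raised NEG_H count and the TSPYL6 count occurred in the same lane, and whether they are related was not tested.

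RFX4 is a transcription factor of the regulatory factor X family, known from testis and from the developing brain, where RFX proteins drive genes of the cilium. The control lanes had 6, 12 and 6 raw counts, SW39 8 and 6, and the reference lanes 63, 19, 25, 34, 31 and 24. All of these were within background. In normalized counts the reference lanes fell between 10.2 and 24.3 and the control lanes between 5.96 and 12.6, so the groups overlapped. In the kinase lanes RFX4 had 1 to 29 counts (median of 10). The highest raw counts above background were 29 in RPS6KL1 (95% Poisson interval 19.4 to 41.6, level of 24.7) and 23 in HK2 (14.6 to 34.5, level of 18.8).

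HORMAD1 marks the chromosome axis of meiotic cells before homologs are joined, and is a cancer/testis gene. It was the other gene of the 6 that was above background in all 6 reference lanes. Over the panel 13 of 42 genes were above background in all of these lanes and 13 in none, against 2 and 3 of the 6. The normalized counts of HORMAD1 in the reference lanes were between 35.4 and 49.7 with a median of 46.5. The raw counts, of which the median was 72, were 1.56 to 2.66 times the background level. In the control lanes 11, 11 and 7 raw counts were found, in SW39 9 and 17, all within background. No reference lane overlapped with a control or SW39 lane. In normalized counts the reference had 43.96 ± 6.17 (SD, n = 6 lanes), the controls 10.2 ± 1.07 (SD, n = 2) and SW39 10.7 ± 3.99 (SD, n = 2). The ratio of the reference to the controls was 4.05, with the controls within background. The mean over the 6 reference lanes was 1.85 times the normalized background level of the controls, again a bound for the ratio of the means. In the kinase lanes the raw count ranged from 1 to 34 (median of 13), the highest normalized count was 34.1, and the highest counts above background were 34 in AXL (95% Poisson interval 23.5 to 47.5, level of 29.3) and 32 in MAP3K14 (21.9 to 45.2, level of 20.8).

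SPATA22 works with MEIOB on single-stranded DNA during meiotic recombination. It was above background most often in the fibroblasts and never in the reference. The control lanes had 16, 21 and 9 raw counts, of which 21 was above the level of its lane, 17.1. The SW39 samples had 17 and 9, and the reference lanes 51, 28, 27, 21, 21 and 20, all within background. In normalized counts the reference had 15.7 ± 2.75 (SD, n = 6 lanes), the controls 15.8 ± 0.14 (SD, n = 2 samples) and the kinase lanes 19.3 ± 6.90 (SD over lanes). The 3 control lanes, at 15.9, 22.04 and 9.35, spanned all 6 reference lanes. In the kinase lanes the raw count ranged from 2 to 41 with a median of 17, and the negative-control probes NEG_E and NEG_F had medians of 16 and 17 in the same lanes. The highest counts above background were 41 in ADCK5 (95% Poisson interval 29.4 to 55.6, level of 28.1) and 40 in PRKCD (28.6 to 54.5, level of 28.9).

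**Figure D2:**
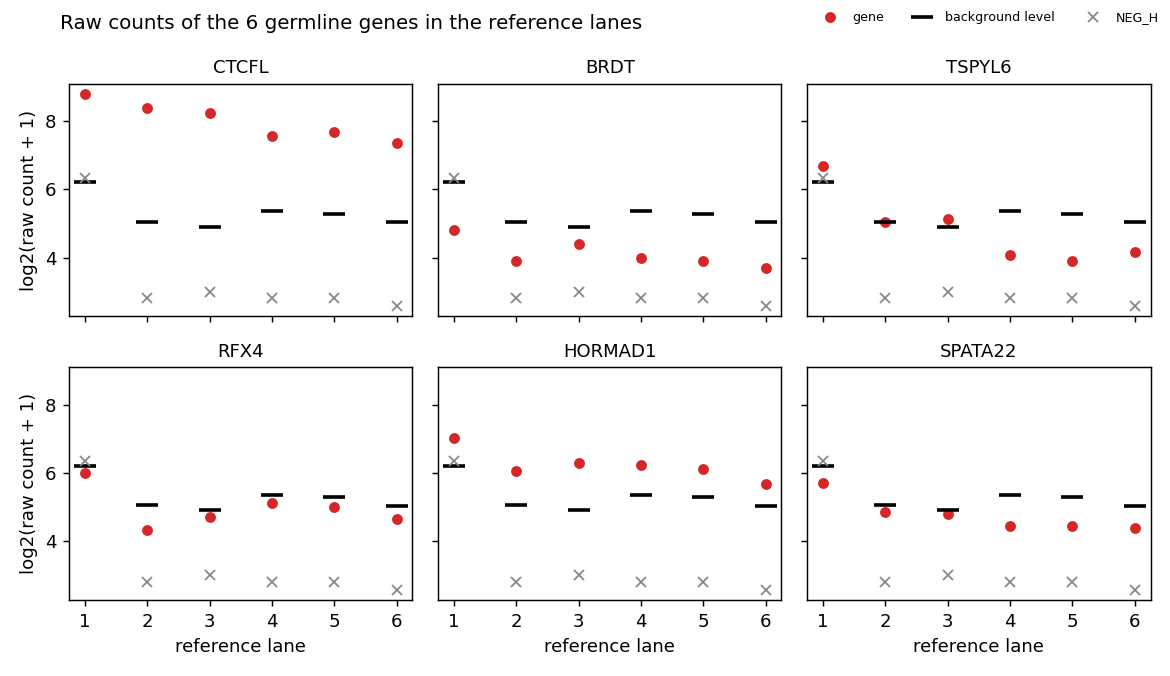
Raw counts on the scale of log2(count + 1) in the 6 reference lanes, a panel per gene; red points are the gene, black bars the background level of the lane and grey crosses the negative-control probe NEG_H. CTCFL (4.69 to 10.4 times the level) and HORMAD1 (1.56 to 2.66 times) lie above the bar in every lane, and TSPYL6 in lanes 1 and 3 only, where lane 1 also has 80 counts of NEG_H.

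By the ratio of means alone, without regard to background, and so with genes whose counts were within it in both groups, 5 of the 6 genes were 2-fold or more higher in the reference, where 78.6% of the 42 genes were. The median ratio was 2.54 for the 6 genes and 2.67 for all 42. With counts below background set to the background level, 1 of the 6 remained at 2-fold, CTCFL, with a ratio of 6.24, and 10 of the 42. Across the other settings the ratio of CTCFL lay between 9.74 and 41.8 and that of HORMAD1 between 2.67 and 8.21, with the upper values from scaling by the positive controls alone. The housekeeping genes were not level between the RNAs. The normalized count of PGK1 was 20483 in the reference and 10350 in the controls, and that of TUBB2A 1612 and 4244. Of genes listed as markers of melanoma or embryonal carcinoma, PRAME, with 2714 ± 419 normalized counts, and MAGEA3, with 1159 ± 84.4 (SD, n = 6 lanes), were above background in all 6 reference lanes. MAGEA4 was in 2 and CTAG1B in 0. Among germ cell genes outside the 6, the RNA-binding and piRNA genes DAZL, DDX4, DDX53, RNF17 and ASZ1 were above background in 2, 0, 3, 1 and 1 reference lanes.

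**Figure D3:**
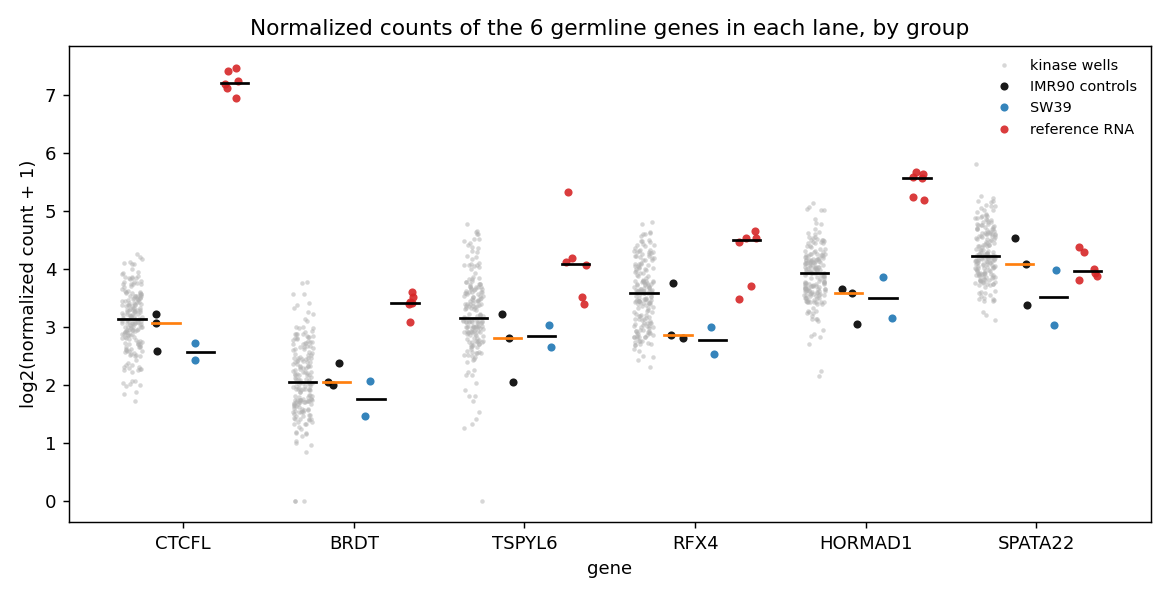
Normalized counts on the scale of log2(normalized count + 1) for the 6 genes in every lane; grey points are kinase lanes, black the 3 IMR90 control lanes, blue the 2 SW39 samples and red the 6 reference lanes, and bars are medians. For CTCFL the reference, at 121.96 to 176.9 normalized counts, lies far above all kinase lanes (at most 18.1), for HORMAD1 it lies narrowly above them (35.4 against 34.1), and for the other genes it overlaps with them.

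The kinase wells as a group were then set against the IMR90 control wells, to ask whether infection with activated kinases moved these genes. An exact permutation test, two-sided, went through all 17020 choices of 2 control wells, with a smallest possible p of 5.88e-05, and p-values were adjusted over the 42 genes. None of the 6 genes passed, 0 of 6, where 4.76% of the 42 did, and 0 of 6 had an unadjusted p under 0.05, against 9 of 42. In bulk RNA, fewer cells that express a gene and less RNA per cell cannot be told apart. The mean difference on the log2 scale was 0.26 for CTCFL (adjusted p = 0.676, exact test), -0.01 for BRDT (0.985), 0.49 for TSPYL6 (0.505), 0.50 for RFX4 (0.398), 0.43 for HORMAD1 (0.376) and 0.26 for SPATA22 (0.627). The median of the 6, 0.35, lay beside a median of 0.50 over all 42. With counts below background set to the background level, the differences of all 6 genes lay between -0.056 and -0.0051. With the first lane of each name only, the difference was 0.20 for TSPYL6 and 0.54 for SPATA22. HORMAD1 exceeded both control wells in 76.5% of the kinase wells, TSPYL6 in 75.96%, RFX4 in 66.1%, SPATA22 in 64.5%, CTCFL in 50.3% and BRDT in 42.1%. Of the 42 genes, 38 had a higher mean in the kinase wells.

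The controls stood in 2 sets of 12 consecutive sample numbers, the first 2 of the series. Within these sets, with the first lane of each name only, the difference between kinase lanes and the control of the same set was 0.43 and -0.26 for CTCFL, -0.11 and -0.26 for BRDT, 0.25 and -0.19 for TSPYL6, 0.37 and 0.34 for RFX4, 0.14 and 0.47 for HORMAD1 and -0.08 and 0.52 for SPATA22. For CTCFL, TSPYL6 and SPATA22 the sign thus differed between the sets, in which 10 and 9 kinase lanes were used.

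In SW39 none of the 6 genes differed from the IMR90 controls by edgeR's quasi-likelihood test with Benjamini-Hochberg adjustment over the 42 genes, 0 of 6, where 7.14% of the 42 did. At an unadjusted p under 0.05 it was 0 of 6 and 4 of 42. The log2 fold change with its standard error was -0.44 ± 0.44 for CTCFL, -0.44 ± 0.57 for BRDT, 0.10 ± 0.43 for TSPYL6, -0.48 ± 0.41 for RFX4, 0.12 ± 0.34 for HORMAD1 and -0.53 ± 0.31 for SPATA22. By edgeR the adjusted p-values lay between 0.541 for SPATA22 and 0.927 for TSPYL6. All 6 genes were within background in both SW39 samples, so these values compare counts near those of the negative-control probes. Of the 5 germ cell RNA-binding and piRNA genes 1 passed, DAZL, with a log2 fold change of 1.64 ± 0.47 (edgeR, adjusted p = 0.0402), and its counts were within background in SW39 and in the controls. The bromodomain gene ATAD2 passed with 3.89 ± 0.19 (edgeR, adjusted p = 3.49e-39). With either control left out that group holds 1 sample, so no call is read from such a fit.

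The screen scored each kinase well by a Z-score, the distance of its log2 normalized count from the mean of the wells in units of their SD, with thresholds of 2.5 and 3.5. Among the 6 genes 4 pairs of gene and kinase exceeded 2.5, where 0.39% of the pairs over the 42 genes did (30 of 7686), and 0 exceeded 3.5. The count of 4 changed with the processing, to 2 with all 4 housekeeping genes, 14 with a pseudocount of 10 and 52 with counts floored at the background level. Of the 4 pairs, 2 were within background. They were BRDT in PDIK1L, with a Z-score of 2.59 from 5 counts (95% Poisson interval 1.62 to 11.7), and BRDT in PRKAG2, with 2.54 from 8 counts (3.45 to 15.8). The other 2 were both in STK32C, where SPATA22 had 39 counts (27.7 to 53.3) and a Z-score of 3.38, and HORMAD1 had 24 counts (15.4 to 35.7) and a Z-score of 2.55, against a level of 18.7. CTCFL in the same well had 12 counts, within background, and a Z-score of 1.99, the third highest of the wells. A Z-score of 2.5 stood for 20.8 normalized counts of CTCFL, 12.2 of BRDT, 30.2 of TSPYL6, 29.9 of RFX4, 33.5 of HORMAD1 and 41.6 of SPATA22. For CTCFL and BRDT this was less than the normalized background level of the controls, 23.1. The highest Z-scores of the genes with none above 2.5 were 2.14 for CTCFL in STK40 (12 counts), 2.22 for TSPYL6 in NUAK2 (18 counts against a level of 15.9, the lane in which it was above background) and 2.24 for RFX4 in PRKACG (17 counts against a level of 11.9).

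In 6 wells picked for kinases with a known role in germ cells or in cell division, the 6 genes were mostly within background. Wells of other such kinases were not among them. Some of the 6 genes were above background in CDK4 and PLK4, and none in CDK7 and PLK2. Over the 6 genes the Z-scores were between -0.79 and 1.36 for TSSK1B, a testis-specific kinase, between -0.89 and 0.94 for CDK2, between -0.53 and 1.39 for CHEK1, between -1.16 and 0.40 for PLK1 and between -1.08 and 0.04 for AURKA, and in these 5 wells 0 of the 6 genes were above background. In TSSK6, another testis-specific kinase, the Z-scores were between 0.20 and 2.19. RFX4, with 19 counts and the second highest Z-score of the wells, and SPATA22, with 17 counts, were above the level of 15.6 there. In MAP3K7 all 6 genes were within background, and SPATA22, with 11 counts, had its lowest Z-score of the screen, -2.31. In MAP3K14, HORMAD1 had 32 counts and a Z-score of 2.35, and SPATA22 had 35 counts and a Z-score of 1.95, both above the level of 20.8. In PIK3CG, SPATA22 was above background in both lanes, with 22 counts against a level of 21.9 and 25 counts against 19.7. The second of these lanes may hold another sample. In PTK2 the 6 genes were within background, and in PIP5K2A, where they had 1 or 2 counts each, also.

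Sample numbers ran together with the level of several genes. When the kinase lanes were put into sets of 12 consecutive sample numbers, which the labels do not call batches, the sets accounted for 43.1% of the variance of the log2 normalized counts of RFX4, 36.8% for SPATA22, 30.2% for TSPYL6, 25.7% for HORMAD1, 24.2% for BRDT and 19.3% for CTCFL (16 sets). Over the other 36 tissue-restricted genes the median was 30.5% (17.5% to 53.5%). For the negative-control probes NEG_G and NEG_H it was 55.4% and 77.2%. The set medians of RFX4 lay between 6.50 and 9.96 normalized counts in sets 1 to 8 and between 11.2 and 17.2 in sets 9 to 16. This division was not planned beforehand, so the lack of overlap is a description. In raw counts the medians did overlap, at 6 to 11 in sets 1 to 8 and 9 to 14 in sets 9 to 16. The median scaling factors of those sets were 0.80 to 1.02 and 0.92 to 1.61. Among sets 1 to 16, SPATA22 and HORMAD1 were highest in set 12, with medians of 30.6 and 21.2, which also had the largest median scaling factor, 1.61, and SPATA22 was above background there in 9 of 12 lanes. STK32C was in set 12. The 2 kinase lanes of set 17 had a HORMAD1 median of 23.1. With each set centred on its mean, a setting chosen after the data had been seen, 4 pairs exceeded a Z-score of 2.5, none of them among the 4 above, and in STK32C the Z-scores were 2.31 for SPATA22 and 1.87 for HORMAD1. The pairs were TSPYL6 in NUAK2 (2.53), HORMAD1 in AXL (2.80) and in MAP3K14 (2.98), and SPATA22 in ADCK5 (2.79).

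**Figure D4:**
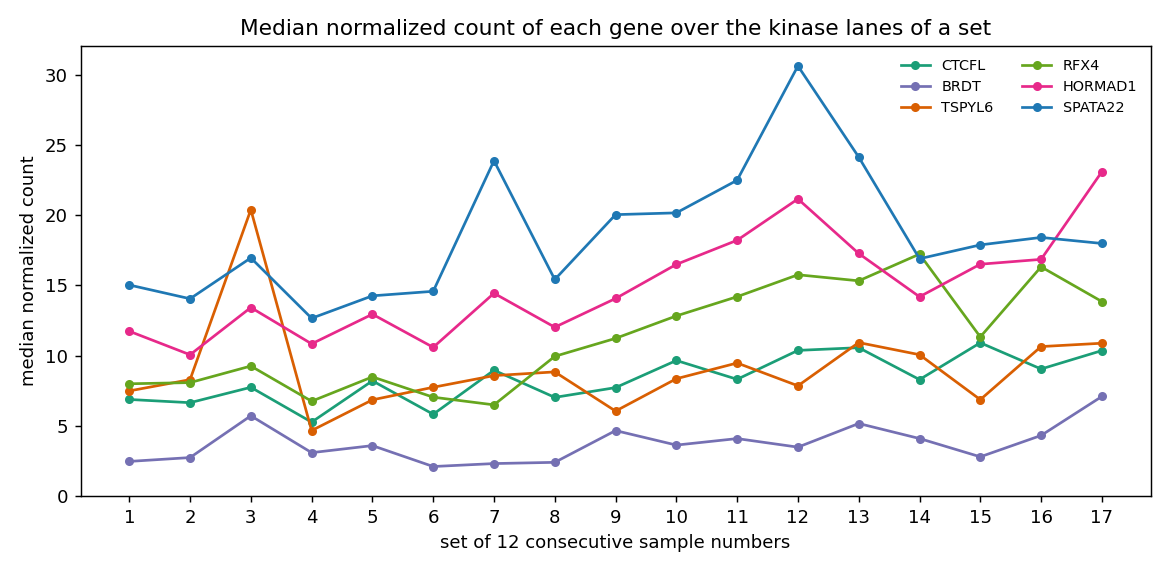
Median normalized count of each of the 6 genes over the kinase lanes of each set of 12 consecutive sample numbers; set 17 holds 2 kinase lanes. TSPYL6 reaches 20.4 in set 3 and lies between 4.67 and 10.9 elsewhere, and SPATA22 and HORMAD1 are high in set 12 at 30.6 and 21.2, with HORMAD1 at 23.1 in set 17.

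TSPYL6 was high in set 3, with sample numbers 25 to 36. Its median was 20.4 normalized counts there and between 4.67 and 10.9 in the other sets, yet it was above background in 0 of the 12 lanes, because the median background level was 52.6 counts. The probe NEG_H had a median of 49.4 normalized counts in this set. Among sets 1 to 16, each of the 8 negative-control probes had its highest median in set 3, NEG_G with 19.7. Other genes highest there included ROPN1 (22.2), TPTE (21.2), DAZL (18.2) and RBM46 (14.4). In 11 lanes of set 3 NEG_H had 44 to 71 raw counts and TSPYL6 13 to 28. In the remaining lane, MPP1, both had 6. Over the kinase lanes the raw counts of TSPYL6 ran with those of each of the 8 negative-control probes (Spearman's rho of 0.32 to 0.46). The rho values were also positive with all 8 for CTCFL (0.15 to 0.41), BRDT (0.14 to 0.36), HORMAD1 (0.13 to 0.39) and SPATA22 (0.12 to 0.40), and lay between -0.08 and 0.11 for RFX4. The probes of a lane share its depth and RNA input, so these values are given as a description. The part of NEG_H in the TSPYL6 counts was not tested.

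The 6 genes were weakly correlated with each other. Over the kinase wells the 15 pairs had Spearman's rho of 0.11 to 0.49, with a median of 0.28, and within sets a median of 0.13. The highest value was that of HORMAD1 and SPATA22 (0.49, and 0.29 within sets), and within sets that of TSPYL6 and RFX4 (0.35, against 0.33 over all wells). For all 6 genes the highest value was with a gene outside the 6. There were 36 such genes and far fewer within the 6, so no conclusion is drawn from this. CTCFL was most like RNF17 (0.48) and DDX53 (0.46), and BRDT most like SSX2 (0.36) and C9orf11 (0.36). TSPYL6 was most like ROPN1 (0.62) and TPTE (0.56), and RFX4 most like SSX1 (0.64) and MAGEA12 (0.63). HORMAD1 was most like ADAM2 (0.59) and MAGEA4 (0.55), and SPATA22 most like PLCZ1 (0.67) and DDX53 (0.65). Within sets these values were lower, 0.22 to 0.52. The genes were measured in the same lanes and scaled by the same factors, which such values include.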

How the data were processed

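RNA was counted on a Nanostring nCounter system, 4 days after infection for the kinase wells. For every lane the authors deposited the raw counts of 75 probes, of which 8 were negative and 6 positive controls. They also deposited a series table of normalized signal, in which each lane's counts are multiplied by a constant, except in 8 lanes that hold the counts themselves. The table served as an alternative. Of the alternatives that moved a value, those given in the report and the closing section are a selection.

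Counts were scaled by the geometric mean of the positive controls and then of PGK1, TBP and TUBB2A, each brought to its mean over the 197 lanes, and a pseudocount of 1 was added before log2 was taken. Lanes of the same name were averaged. The tools were numpy 2.4.6, scipy 1.17.1 and pandas 2.3.3 in Python 3.11.15, and edgeR 4.0.16 in R 4.3.3. For SW39, edgeR was run on counts of the endogenous probes with housekeeping offsets, and DESeq2 1.42.0 and limma 3.58.1 were alternatives. Computations were tested on simulated data. Samples were grouped by their labels. The 6 genes, the wells to be named, the comparison lists and the tests were chosen with earlier results of these data known. Wells were named where a Z-score exceeded 2.5, otherwise for the highest Z-score, and for the 2 highest raw counts above background. MAP3K7, MAP3K14, PIK3CG, PTK2, PIP5K2A and 6 kinases with germline or meiotic roles were named throughout. Leaving out reference lane 1 and centring the sets of 12 sample numbers were settings chosen after seeing the data. Infections were made well by well. Whether the 2 SW39 samples were separate cultures is not given in the sources used here, so their p-values may measure technical spread only. Most counts were below the negative-control level, so depth limits what can be seen, and Poisson intervals (95%) cover counting error only. Gene and promoter positions are those of RefSeq on GRCh38.p14, matched by symbol.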

Additional observations from a re-analysis of the deposited data

Results flagged for a closer look

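TSPYL6 in reference lane 1 stood apart from the other 5 lanes of the same RNA, with a normalized count of 39.34 against 9.49 to 17.2. Its distance to the next lane, relative to the whole range of the 6 lanes, exceeded Dixon's 95% critical value of 0.625. Chance gives such a distance in about 1 of 20 groups, and 6 of the 42 genes had one in the reference, 3 of them in lane 1. In this lane NEG_H had 80 counts and the background level was 72.9 counts. Whether these account for the TSPYL6 value was not tested.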

How the results depend on the processing

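No gene of the 6 passed a test against the controls in the kinase wells or in SW39 under any alternative run. Of the 42 genes, 2 passed in the kinase wells, and 0 did with all 4 housekeeping genes, with the deposited table, with a pseudocount of 10, with counts floored at the background level, with the first lane of each name, within sets, or without either control (0 to 0). The last 2 settings say nothing about stability, since their smallest possible p, 0.0091 and 0.0054, could not pass the adjustment for 2 genes. With that floor the kinase-minus-control difference turned to -0.056 for CTCFL, -0.055 for TSPYL6, -0.036 for RFX4, -0.015 for HORMAD1 and -0.0051 for SPATA22. For BRDT it was 0.19 with positive controls only, 0.027 with a pseudocount of 10 and 0.076 with first lanes. With a control left out it ranged from -0.020 (without control 1) to 0.54 for CTCFL and from -0.12 to 0.099 (without control 2) for BRDT. For RFX4 it ranged from 0.25 (without control 1) to 0.76 (without control 2). The cause was not tested.

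The reference ratio of CTCFL was 41.8 with positive controls only, 25.5 with all 4 housekeeping genes, 35.6 from the deposited table, 9.74 with a pseudocount of 10, 6.24 with the floor, and 17.01 to 25.1 with a lane or control left out, and that of HORMAD1 was 8.21, 4.97, 6.92, 2.67 and 1.86 in the first 5 of these. With positive controls only the ratio was 4.69 for BRDT, 5.14 for TSPYL6, 4.47 for RFX4 and 2.05 for SPATA22. The reference counts of these genes were mostly within background. With the floor the ratio was 0.985 for BRDT and for RFX4, which compares background levels only. Genes at 2-fold were 6 of 6 and 40 of 42 with positive controls only. They were 2 of 6 and 18 of 42 with a pseudocount of 10, and 1 and 10 with the floor. With a level of mean + 3 SD, 35 pairs of gene and lane were above background. Pairs with a Z-score above 2.5 numbered 2 with all 4 housekeeping genes, 14 with a pseudocount of 10, 52 with the floor and 2 among those above background. They numbered 4 without the PIP5K2A well, 6 with the HK1 well and 4 with the sets centred.

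In SW39 the fold change was -0.11 with TMM, -0.18 with first lanes and -0.011 with DESeq2's size factors for TSPYL6, and -0.087 with TMM and -0.013 with DESeq2's size factors for HORMAD1. With a sample left out it ranged from -0.64 to 0.010 (without control 2) for CTCFL, from -0.14 (without SW39 sample 2) to 0.30 for TSPYL6 and from -0.33 (without SW39 sample 2) to 0.44 for HORMAD1. For SPATA22 it ranged from -1.13 (without SW39 sample 1) to -0.080 (without SW39 sample 2). For BRDT it ranged from -0.93 (without SW39 sample 2) to -0.10 (without SW39 sample 1). For RFX4 it ranged from -0.77 (without SW39 sample 1) to -0.029 (without control 2). With TMM the unadjusted p of SPATA22 was 0.031 (edgeR). With a sample left out 1 of the groups holds 1 sample, so only fold changes are given for these fits. The filter on counts above the level left 0 of the 6 genes, so it gave no value for them. Samples of the same number also shared a set of 12 sample numbers. Control 1 and SW39 sample 1 were in set 1, and SW39 sample 2 and the first lane of control 2 in set 2. The correlation of their deviations was 0.06, but with 2 samples per group and most genes near background it cannot decide whether they are paired. With the replicate number as a block the fold change was -0.38 for CTCFL and -0.59 for SPATA22, and 4 of the 42 passed, 0 of the 6.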
